A study of Homo sapiens with 18 samples.

Results

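Imprinted genes are genes that are read from only 1 of the parental copies, and 36 of them were looked up by symbol in the RNA sequencing table of this study, which holds 26475 genes. The 36 genes were chosen by name from the well-known human imprinted clusters, with earlier results of these data known. Of these, 22 are known to be read from the paternal copy, 8 from the maternal copy and 6 in a way that depends on tissue or transcript. UBE3A is counted as maternal here, although it is imprinted only in neurons. RNA was sequenced from Mel92.1 and MP41, established lines of uveal melanoma, the cancer of the pigment cells of the eye. Each line was kept for 48 h with DMSO, the solvent control, with UNC0642 at 1 µM or with A366 at 1 µM, with 3 libraries per group and 18 libraries in all. The labels name no engineered change in either line. The study's methods speak of biological replicates for its experiments in general. The labels do not say how the 3 libraries of a group were grown, and the p-values below measure the spread between these libraries. The labels give both lines the same share of serum in the medium, whereas the methods of the study give MP41 more, and line and medium cannot be told apart.

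UNC0642 and A366 block EHMT2 (G9a) and its partner EHMT1 (GLP), enzymes that methylate histone H3 at a lysine linked to silenced chromatin. An imprinted cluster is run by a control region whose DNA is methylated on 1 parental chromosome and not on the other, and genes around it are switched off on the matching copy. G9a is known to take part in that silencing at several clusters in placenta and embryonic cells. Counts per gene add the parental copies together, so they show how much RNA a gene gave and not which copy gave it.

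The libraries held 23601156 to 62941462 counts (median 41955693), and 3.31% to 32.8% of them fell on 4 ribosomal RNA genes. Mel92.1 UNC0642 replicate 1 stood apart, with the lowest total, the highest ribosomal share and 13344 genes above 0, against 16296 to 18217 in the others. The libraries labelled A366 replicates 2 and 3 of either line went against their labels. Genes that mark a line (20 for Mel92.1 and 21 for MP41, NDN being 1 of the latter) stood at 0.0124% to 0.0348% of their DMSO level in these 4 libraries for the labelled line, and at 95.2% to 121% for the other line. The supplementary dataset of the study lists the 4 under the other line, and they are placed there here. Counts of called members with A366 are also given as labelled, except for A366 against UNC0642 in Mel92.1. Those for MP41 and for the line difference in response are also given without these 4 libraries. That leaves 1 A366 library per line, which is assumed to vary like the other groups. Most single-gene A366 values, the counts of libraries without overlap and the further gene lists rest on the placement used here. The 7 melanocyte markers, such as PMEL and MLANA, summed to 14996 to 24412 CPM (counts per 1e+06 counts, scaled by the TMM factors) in the 18 libraries, and the 5 leukocyte, 3 endothelium and 3 epithelium markers to at most 2.21, 3.14 and 1.75 CPM. The 5 fibroblast markers summed to 23.1 to 53.7 CPM.

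Which imprinted genes these cells express differed by line. After edgeR's filter on low counts, 23 members could be tested in each line, and 21 of them in both. PEG3 and PLAGL1 passed only in Mel92.1, and IGF2 and NDN passed only in MP41. The other 11 members passed in neither line and had at most 20 counts in any library. They were MAGEL2 and MKRN3 of the Prader-Willi region, DLK1, MEG3 and MEG8 of the DLK1-MEG3 cluster, and MEST, ZIM2, GNAS-AS1, HYMAI, DIRAS3 and FAM50B. MEG8 and GNAS-AS1 were at 0 in all 18 libraries, and the whole DLK1-MEG3 cluster was close to it, with at most 5 counts for DLK1, which encodes a growth regulator of the Notch ligand family. Changes in these 11 genes were not detectable at this depth. Of the paternal genes 13 of 22 were tested in at least 1 line, of the maternal genes 6 of 8, and of the tissue-dependent genes 6 of 6.

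Of the genes on in 1 line and off in the other, promoters are shown here for NDN and for 1 of the 5 PLAGL1 windows, and none for IGF2 and PEG3, with the promoter shared by SNRPN and SNURF as the neighbour of NDN that was on in both lines. RefSeq start sites on GRCh38.p14 were used for 21 members, in 48 windows of 300 bases that end 50 bases after the start. TRAPPC9 is not among these 21 members, so the motif shares of imprinted genes below do not cover it. The capitals mark TGCCGC or its reverse complement GCGGCA, the letters in which the imprint factor ZFP57 recognises methylated DNA. The NDN window lies at chr15:23687256-23687555 on the minus strand, the SNURF and SNRPN window at chr15:24954737-24955036 on the plus strand, and the window of HYMAI and of 1 PLAGL1 transcript at chr6:144008210-144008509 on the minus strand. Of the 5 PLAGL1 windows the one shared with HYMAI is the only window with these letters. Which window gave the PLAGL1 RNA was not tested.
NDN: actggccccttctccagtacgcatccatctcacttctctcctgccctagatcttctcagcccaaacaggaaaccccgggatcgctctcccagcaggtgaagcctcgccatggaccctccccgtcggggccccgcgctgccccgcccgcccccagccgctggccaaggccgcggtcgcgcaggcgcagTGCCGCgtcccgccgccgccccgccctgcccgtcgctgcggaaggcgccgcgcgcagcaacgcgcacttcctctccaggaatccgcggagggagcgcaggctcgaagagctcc
SNURF and SNRPN: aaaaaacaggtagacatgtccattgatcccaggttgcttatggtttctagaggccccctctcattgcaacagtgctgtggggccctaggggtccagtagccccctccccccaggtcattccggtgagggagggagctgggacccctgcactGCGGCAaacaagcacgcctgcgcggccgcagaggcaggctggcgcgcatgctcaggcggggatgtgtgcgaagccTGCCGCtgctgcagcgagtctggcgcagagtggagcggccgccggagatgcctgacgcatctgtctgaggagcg
PLAGL1 and HYMAI: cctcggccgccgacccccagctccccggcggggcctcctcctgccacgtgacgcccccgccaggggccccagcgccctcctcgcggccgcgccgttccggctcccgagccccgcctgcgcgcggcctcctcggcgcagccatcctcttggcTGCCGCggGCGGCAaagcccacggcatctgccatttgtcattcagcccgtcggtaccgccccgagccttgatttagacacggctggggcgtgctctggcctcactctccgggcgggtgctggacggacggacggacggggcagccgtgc
The motif, searched on both strands, was in 21 of the 48 windows of imprinted genes (43.8%) and in 16.7% of all 34943 promoter windows, and 15 of the 21 genes (71.4%) held it in at least 1 window, against 19.5% of all 27305 genes. Imprinted genes had 2.29 windows per gene against 1.28 over all genes, and some of their windows overlap. With overlapping windows joined, 16 of 41 imprinted regions held the motif (39%), against 16.9% of all 32679. Imprinted windows were also rich in CG pairs, with a median of 18.5 against 14 in all windows, and the motif itself contains such a pair. A match is a description of these letters and not of a bound site. ZFP57 itself was at 0.187 CPM or less in every library, and ZNF445, another zinc finger protein of imprints, lay between 10.7 and 29.2 CPM.

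Levels of different genes were compared per kilobase of the longest annotated transcript, with DMSO. GNAS, which encodes the stimulatory G protein subunit that raises cyclic AMP, was the highest member in both lines, at 359.8 ± 24.5 CPM per kb in Mel92.1 and 265 ± 7.82 in MP41 (SD, n = 3). SNURF came second in both lines, at 43.6 ± 4.31 CPM per kb in Mel92.1 and 121 ± 3.60 in MP41 (SD, n = 3), and did not overlap GNAS. SNURF and SNRPN share reads and had nearly the same CPM, so their order rests on annotated lengths of 796 and 1940 bases. In Mel92.1 the second place of SNURF rests on this length too, since SNRPN came below PEG10. In Mel92.1 IGF2R came next at 26.2 CPM per kb, followed by PHLDA2 (20.5), PEG10 (19.3) and SNRPN (17.9), each of which overlapped the gene above it. In MP41 the next were SNRPN at 49.2 CPM per kb, INPP5F at 45.4 and PEG10 at 33.4, none of which overlapped its neighbour above, and PHLDA2 at 32.3, which did. The lowest tested members in both lines were L3MBTL1 and KCNQ1OT1, each at or below 0.109 CPM per kb. KCNQ1OT1 is an unspliced antisense RNA whose annotated length is 91667 bases, so its low value per kb goes with 363 counts or more per library in MP41.

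**Figure D1:**
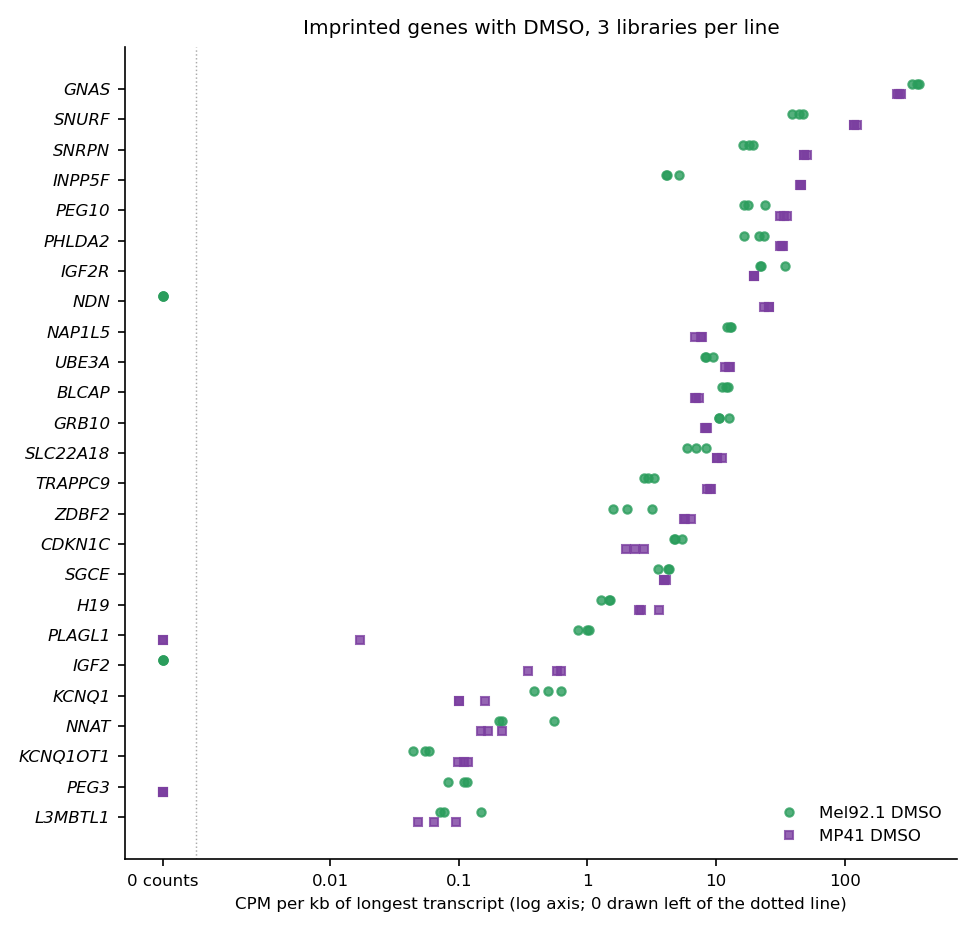
Level of the 25 imprinted genes tested over all 18 libraries, in CPM per kb of the longest transcript on a log axis, for the 3 DMSO libraries of Mel92.1 (circles) and of MP41 (squares). NDN and IGF2 lie at 0 counts in Mel92.1 and PEG3 at 0 counts in MP41, GNAS is the highest gene in both lines, and INPP5F is about 10.1 times higher in MP41.

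The lines were compared without inhibitor to see how far the imprinted genes differ from one uveal melanoma line to another. Of the 25 members tested over the 18 libraries, 9 were higher in Mel92.1 and 13 were higher in MP41 at an adjusted p under 0.05 (edgeR, quasi-likelihood, with Benjamini-Hochberg correction across all tested genes). The background was high, since 69.4% of all 15799 genes tested passed the same threshold (34.5% higher and 34.8% lower in Mel92.1). The libraries of the lines did not overlap for 22 of the 25, beside 77.4% of all genes. The 3 members that did not pass were SGCE, NNAT and L3MBTL1. The median log2 difference, Mel92.1 minus MP41, was -0.51 over the members and -0.02 over all genes. By parental class, 3 paternal genes were higher and 7 lower in Mel92.1, against 2 and 4 maternal and 4 and 2 tissue-dependent genes. UBE3A, which is imprinted only in neurons, is among the maternal genes that were lower.

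The Prader-Willi region on chromosome 15 showed the sharpest contrast. NDN, a single-exon gene (chromosome 15, 23685400 to 23687330 on GRCh38) for necdin, a growth-restraining protein of neurons, held 45.7, 49.7 and 49.9 CPM in the DMSO libraries of MP41 and 0 counts in the 3 DMSO libraries of Mel92.1. NDN was therefore at least 2021-fold higher in MP41, computed against a floor of 3 counts over the Mel92.1 group. Since NDN is 1 of the genes that mark MP41, this is also what placed it there. Its cluster neighbours SNURF and SNRPN, which share a transcript for a small upstream protein and for a splicing protein, were on in both lines. SNURF held 31.1, 35.0 and 38.0 CPM in Mel92.1 and 94.9, 99.3 and 93.9 CPM in MP41 with DMSO. The groups did not overlap, and the log2 difference was -1.47 (SE 0.104, edgeR adjusted p = 9.34e-10). SNRPN had nearly the same values (log2 difference -1.46), because both genes lie on the same strand and share reads, so how the counting split them is uncertain. MAGEL2 and MKRN3, which lie beside NDN, stayed at no more than 13 and 4 counts in any library, so MP41 expressed NDN without measurable RNA from its next neighbours.

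UBE3A, the ubiquitin ligase that is imprinted only in neurons, closed the region with 88.4, 77.9 and 76.7 CPM in Mel92.1 and 109, 117 and 121 CPM in MP41. These groups did not overlap, with a log2 difference of -0.51 (SE 0.0847, edgeR adjusted p = 3.63e-05). When a smooth offset for length and GC content was added per library, the difference turned to 0.11 and did not pass the threshold (adjusted p = 0.191).

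IGF2 and H19 form the first cluster of chromosome 11, where IGF2 encodes a fetal growth factor and H19 a long noncoding RNA. IGF2 held 3.24, 3.46 and 1.93 CPM in MP41 and 0 counts in Mel92.1 with DMSO, so it was at least 119.7-fold higher in MP41. IGF2 overlaps INS-IGF2 on its strand and IGF2-AS on the other, and reads shared with these are uncertain. H19 held 3.54, 3.48 and 2.99 CPM in Mel92.1 and 6.16, 8.43 and 5.91 CPM in MP41, without overlap (log2 difference -1.03, SE 0.385, edgeR adjusted p = 0.0245). This call was lost in 4 of 27 alternatives, with an adjusted p of up to 0.0958, and with the length and GC offset the difference was -1.66. MP41 thus held RNA from both genes of the cluster, and Mel92.1 from H19 alone.

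PLAGL1 and PEG3 were on only in Mel92.1. PLAGL1, a zinc finger protein that restrains cell division, held 6.45, 6.25 and 5.33 CPM in Mel92.1 with DMSO and 0.108, 0 and 0 CPM in MP41. The 757 counts against 5 gave a 164-fold higher level in Mel92.1 (exact 95% interval for counting error only, 69.8 to 505). PEG3, another zinc finger gene, held 0.962, 1.01 and 0.721 CPM in Mel92.1 and 0 counts in MP41, at least 40.7-fold higher in Mel92.1. PLAGL1 overlaps HYMAI and PEG3 overlaps ZIM2 on the same strand, but HYMAI and ZIM2 never held more than 2 counts.

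INPP5F, a phosphatase of membrane lipids, held 27.2, 22.1 and 21.7 CPM in Mel92.1 and 243, 239.6 and 241 CPM in MP41. With a log2 difference of -3.35 (SE 0.109, edgeR adjusted p = 3.82e-14), it was the largest difference among members that both lines expressed. Only 1 of the INPP5F transcripts is imprinted, and counts per gene do not tell it from the rest. TRAPPC9, a vesicle trafficking gene that is imprinted in some tissues, held 22.9, 20.4 and 19.2 CPM in Mel92.1 and 63.3, 59.3 and 61.8 CPM in MP41 (log2 difference -1.56, SE 0.103, edgeR adjusted p = 4.04e-10). Neither gene overlapped between the lines.

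KCNQ1, the potassium channel of the second chromosome 11 cluster, went the other way, with 1.25, 1.60 and 2.01 CPM in Mel92.1 and 0.519, 0.325 and 0.326 CPM in MP41 (log2 difference 2.04, SE 0.514, edgeR adjusted p = 0.00193). Its antisense partner KCNQ1OT1, the paternal RNA that silences the cluster in cis, was higher in MP41, with 10.8, 9.08 and 10.1 CPM against 5.38, 4.02 and 5.05 CPM (log2 difference -1.05, SE 0.205, edgeR adjusted p = 0.000200). CDKN1C, the maternal inhibitor of cyclin-dependent kinases in that cluster, held 9.21, 9.18 and 10.5 CPM in Mel92.1 and 3.85, 5.32 and 4.54 CPM in MP41 (log2 difference 1.07, SE 0.202, edgeR adjusted p = 0.000139). So KCNQ1 and CDKN1C were lower, and KCNQ1OT1 higher, in the same line. With the length and GC offset KCNQ1OT1 was at -0.38 and not called (adjusted p = 0.0714), and CDKN1C was at 0.41 (adjusted p = 0.0452) and lost its call in 1 of 27 alternatives. PHLDA2 and SLC22A18, maternal genes at the far end of the cluster, did not share that order: both were higher in MP41 (log2 differences -0.66 and -0.57, and -1.23 and -1.15 with the offset). The library kit marked the strand, but whether the counting used it is not given in the sources used here, so reads of KCNQ1 and KCNQ1OT1 may not be fully told apart.

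With either compound the members that were off stayed at low counts. Over the 9 Mel92.1 libraries, NDN and IGF2 never exceeded 1 count each, and the single counts were in 1 A366 library and 1 UNC0642 library. Over the 9 MP41 libraries, PLAGL1 reached at most 8 counts and PEG3 at most 6, both in UNC0642 libraries. The 11 members below the filter in both lines held at most 20 counts under any treatment. That highest value was MEG3, the maternal noncoding RNA of its cluster, in the shallow Mel92.1 UNC0642 replicate 1, where it stood for 1.21 CPM, and in MP41 UNC0642 replicate 3. In Mel92.1 the other two UNC0642 libraries held 2 and 0 counts of MEG3, and the DMSO libraries 0. MEST, a paternal gene for a hydrolase-like protein, held 7, 8 and 3 counts in the MP41 UNC0642 libraries, all above the 0, 2 and 0 counts with DMSO, and 2, 0 and 1 with A366. MAGEL2 held 8, 6 and 4 counts with DMSO and 0 in all 3 UNC0642 libraries of Mel92.1. These genes were under the filter and were not tested.

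**Figure D2:**
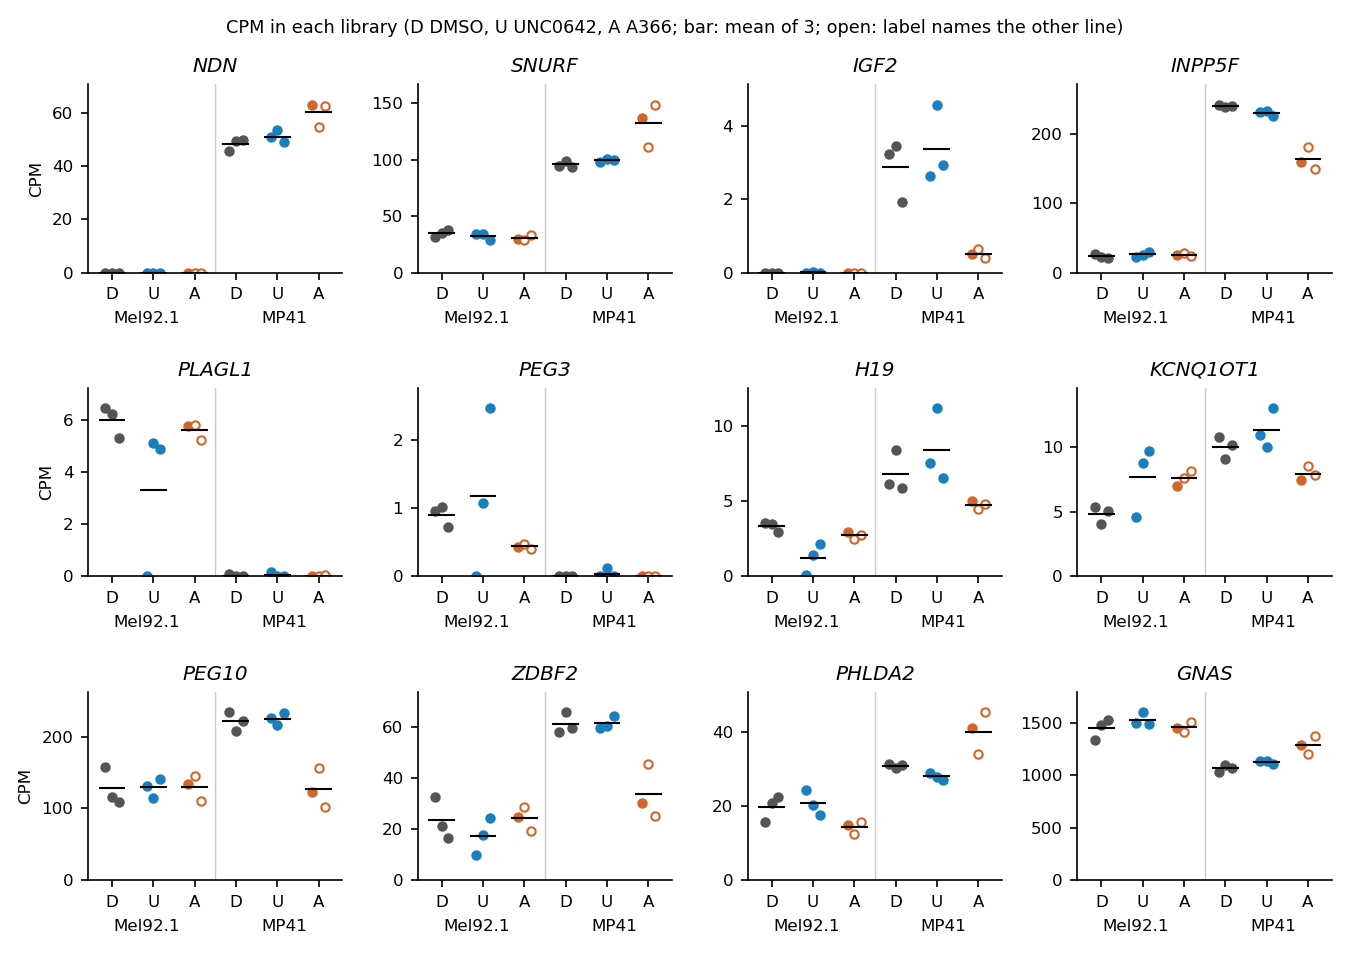
CPM of 12 imprinted genes in each of the 18 libraries, by line and treatment on the horizontal axis, with a bar at the mean of 3; open circles are the libraries whose label names the other line. NDN, IGF2, PLAGL1 and PEG3 are near 0 in 1 line under every treatment, and in MP41 the A366 libraries of PEG10, ZDBF2 and INPP5F lie below all DMSO and UNC0642 libraries.

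In Mel92.1, UNC0642 was compared with DMSO to ask whether G9a inhibition moves imprinted genes. Of 23 members tested, 0 passed an adjusted p of 0.05 by edgeR's quasi-likelihood test, 2 had an unadjusted p under 0.05, and the DESeq2 Wald test called 0. Of all 14528 genes tested, 0.688% passed by edgeR. The share of all genes by DESeq2 is not given here or below, so its counts of 0 have no background. The 2 members with an unadjusted p under 0.05 were KCNQ1OT1 and H19. KCNQ1OT1 held 5.38, 4.02 and 5.05 CPM with DMSO and 4.62, 8.78 and 9.65 CPM with UNC0642, so replicate 1 lay within the DMSO range and the other two above it. The log2 fold change was 0.68 (SE 0.256, edgeR adjusted p = 0.422, and 0.0188 to 1.00 over the alternatives). Without the shallow replicate 1, KCNQ1OT1 was the only member called, at a log2 fold change of 0.93 (SE 0.144, edgeR adjusted p = 0.0188), beside 1.24% of all genes.

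H19 held 3.54, 3.48 and 2.99 CPM with DMSO and 0.121, 1.46 and 2.14 CPM with UNC0642 in Mel92.1. All 3 UNC0642 libraries lay below the DMSO libraries, at a log2 fold change of -1.35 (SE 0.590, edgeR adjusted p = 0.494). Without replicate 1 it was -0.89 (SE 0.200, edgeR adjusted p = 0.0970). Replicate 1, with 2 counts of H19, is also the library where PLAGL1, PEG3, NNAT and L3MBTL1 were at 0. PLAGL1 was at 5.12 and 4.89 CPM in the other two UNC0642 libraries, just under the DMSO values of 5.33 to 6.45. H19 and PLAGL1 were the 2 members of 23 whose UNC0642 and DMSO libraries did not overlap, beside 15.5% of all genes. For 14 of the 23 members the 95% interval of the change stayed within 1.5-fold either way. Among the rest were the low genes NNAT, L3MBTL1 and PEG3, where changes over 1.5-fold were not detectable at this depth. PLAGL1 was also among them, but without replicate 1 its interval ran from -0.56 to 0.02, within 1.5-fold.

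A366 in Mel92.1 also called 0 of 23 members, with 3 at an unadjusted p under 0.05 and 0 by DESeq2, and 0.213% of all genes tested passed by edgeR. With the libraries as labelled 0 of all 14692 genes tested were called, so the 0 members called there say nothing about the members. Without the 4 libraries that went against their labels, 1 A366 library is left in this line, too few to decide. KCNQ1OT1 held 6.96, 7.60 and 8.18 CPM with A366, all above its DMSO range of 4.02 to 5.38. Its log2 fold change was 0.65 (SE 0.255, edgeR adjusted p = 0.936). The other members with an unadjusted p under 0.05 were lower with A366. PHLDA2, a growth-restraining gene of placenta, held 15.7, 20.7 and 22.4 CPM with DMSO and 15.01, 12.6 and 15.7 CPM with A366 (log2 fold change -0.44, SE 0.167, edgeR adjusted p = 0.903), touching at the edge of the groups. KCNQ1 held 0.706, 0.806 and 1.14 CPM with A366, below its DMSO libraries (log2 fold change -0.86, SE 0.380, edgeR adjusted p = 1.00). For 13 of 23 members the 95% interval stayed within 1.5-fold. Libraries did not overlap for 5 of 23 members, KCNQ1OT1 above and KCNQ1, CDKN1C, PHLDA2 and PEG3 below, beside 15.8% of all genes.

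In MP41, UNC0642 called 0 of 23 members by edgeR, with 1 at an unadjusted p under 0.05, beside 0.241% of all genes. DESeq2 called 0 members. The 1 with an unadjusted p under 0.05 was SGCE, the sarcoglycan gene that shares a promoter region with PEG10. SGCE held 24.5, 24.6 and 25.6 CPM with DMSO and 21.7, 21.9 and 23.3 CPM with UNC0642. Its groups did not overlap, but the log2 fold change of -0.16 (SE 0.0674) had an edgeR adjusted p of 0.506. The replicates here were tight: for 18 of 23 members the 95% interval lay within 1.5-fold either way, and the other 5 were H19, IGF2, KCNQ1, NNAT and L3MBTL1. NDN, for example, held 50.9, 53.6 and 49.1 CPM with UNC0642 against 45.7, 49.7 and 49.9 CPM with DMSO. Libraries did not overlap for 8 of 23 members (3 above and 5 below), beside 18.8% of all genes.

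**Figure D3:**
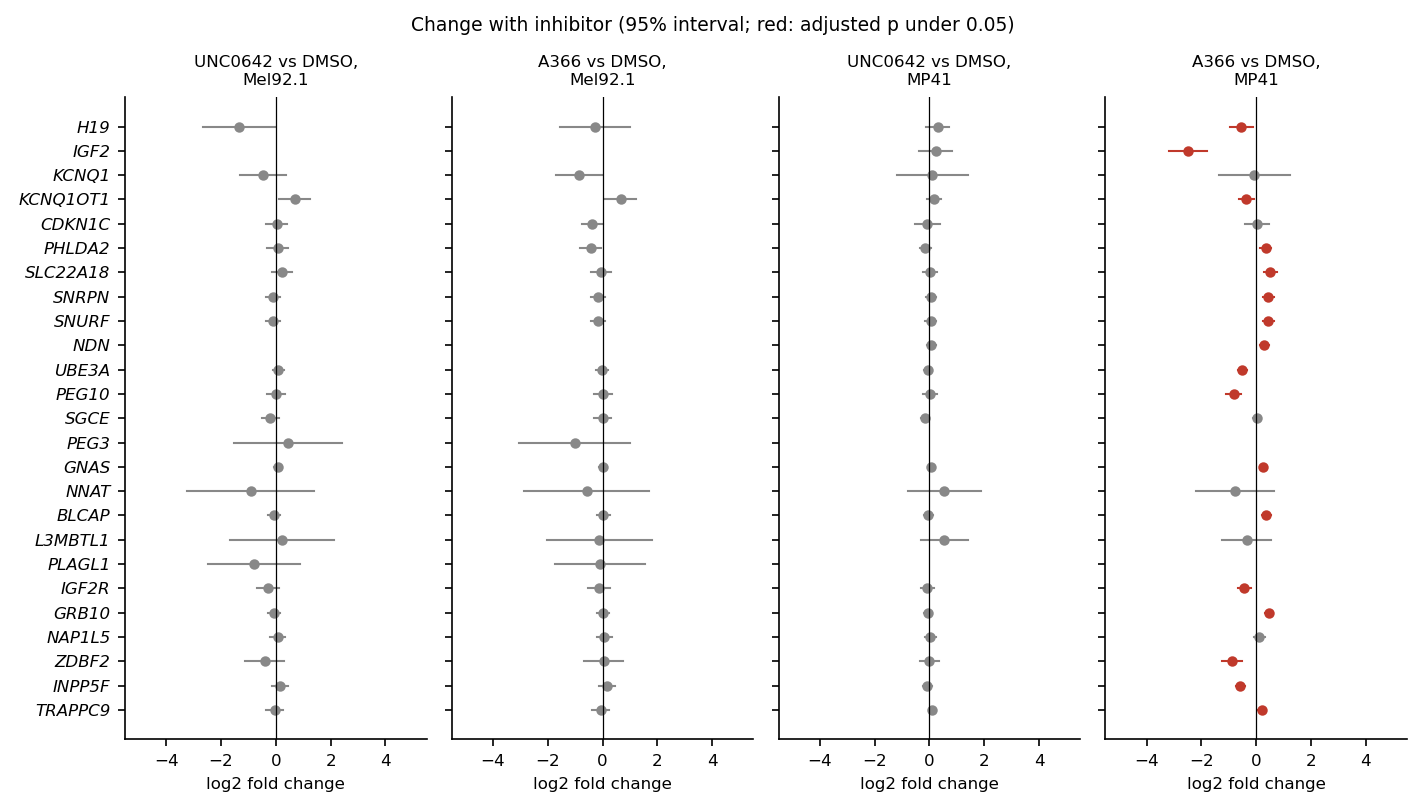
Log2 fold change of each tested imprinted gene with UNC0642 or A366 against DMSO in Mel92.1 and in MP41, with 95% intervals; red marks an edgeR adjusted p under 0.05. Red points are found for A366 in MP41, 9 to the right of 0 and 8 to the left, and in none of the other 3 comparisons.

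A366 in MP41 changed imprinted genes in both directions: 17 of 23 members passed an edgeR adjusted p of 0.05, 9 higher and 8 lower. This stood beside 46.0% of all 14956 genes tested (22.5% higher and 23.5% lower), so a large part of the transcriptome moved in these libraries. The share of ribosomal RNA was 5.93%, 8.06% and 11.0% in the A366 libraries, above the 3.31% to 5.10% with DMSO and 3.55% to 5.14% with UNC0642. The endothelium markers summed to 2.37 to 3.14 CPM with A366 and 0.369 to 0.584 CPM with DMSO, with VWF called higher (log2 fold change 2.73, edgeR adjusted p = 0.00107), and CDH5, at 0 with DMSO, above 0. The part of either in the changes below was not tested. The median log2 fold change was 0.03 over the members and 0.02 over all genes. Without the 4 libraries that went against their labels, 14 members were called (8 higher and 6 lower) beside 35.7% of all genes, and the 17 kept their directions. As labelled, where the A366 arm mixes both lines, 9 members were called (4 higher and 5 lower) beside 32.8%. By class, 3 paternal genes rose and 4 fell of 11 tested, 2 maternal rose and 2 fell of 6, and 4 tissue-dependent rose and 2 fell of 6. UBE3A, which is imprinted only in neurons, is among the maternal genes that fell.

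IGF2 fell most. It held 3.24, 3.46 and 1.93 CPM with DMSO and 0.502, 0.644 and 0.409 CPM with A366, while UNC0642 libraries held 2.65, 4.58 and 2.92 CPM. All A366 libraries lay below all others, at a log2 fold change of -2.49 (SE 0.316, edgeR adjusted p = 0.000314). The fall stayed between -2.71 and -2.34 over the alternatives without an offset and was -2.51 with the length and GC offset. H19, its partner, fell less, from 6.16, 8.43 and 5.91 CPM to 5.00, 4.49 and 4.85 CPM (log2 fold change -0.54, SE 0.199, edgeR adjusted p = 0.0419). The H19 call was lost in 8 of 19 alternatives, among them those without MP41 DMSO replicate 2 (log2 fold change -0.36) and without the 4 libraries (-0.49, adjusted p = 0.222), and with the offset H19 was at -0.87.

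The retrotransposon-derived PEG10, a growth gene of placenta, held 234, 208 and 222 CPM with DMSO, 227, 216 and 233 CPM with UNC0642 and 122, 157 and 102 CPM with A366. PEG10 fell without overlap, at a log2 fold change of -0.82 (SE 0.124, edgeR adjusted p = 0.000607). SGCE, which begins beside PEG10 on the opposite strand, held 25.8, 26.0 and 26.3 CPM with A366, at a log2 fold change of 0.04 (95% interval -0.11 to 0.18). The 95% intervals of PEG10 and SGCE did not overlap. ZDBF2, a paternal zinc finger gene, held 58.0, 65.5 and 59.2 CPM with DMSO and 30.2, 45.3 and 24.9 CPM with A366 (log2 fold change -0.89, SE 0.166, edgeR adjusted p = 0.00150). INPP5F held 243, 239.6 and 241 CPM with DMSO and 160, 182 and 149.9 CPM with A366 (log2 fold change -0.58, SE 0.0725, edgeR adjusted p = 0.000292). In each of these 3 falls the libraries did not overlap, and the mean A366 level in MP41 remained above the Mel92.1 DMSO mean for ZDBF2 and INPP5F. For ZDBF2 the A366 libraries of MP41 overlapped the Mel92.1 DMSO libraries, which reached 32.6 CPM. For INPP5F they did not, since the Mel92.1 DMSO libraries reached 27.2 CPM. With the length and GC offset the falls were smaller and still called, at -0.56 for PEG10, -0.40 for ZDBF2 and -0.36 for INPP5F.

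The Prader-Willi genes split by name. NDN held 63.2, 54.7 and 62.8 CPM with A366, above all DMSO and UNC0642 libraries, at a log2 fold change of 0.29 (SE 0.0748, edgeR adjusted p = 0.00798). SNURF held 137, 112 and 149 CPM with A366 against 94.9, 99.3 and 93.9 CPM with DMSO (log2 fold change 0.44, SE 0.0887, edgeR adjusted p = 0.00221), and SNRPN rose with it by the same 0.44. UBE3A fell from 109, 117 and 121 CPM to 80.7, 89.9 and 75.7 CPM (log2 fold change -0.52, SE 0.0749, edgeR adjusted p = 0.000531). With the length and GC offset these calls were lost for NDN (0.02, adjusted p = 0.782), SNURF (-0.00, adjusted p = 0.982) and UBE3A (-0.03, adjusted p = 0.736), and SNRPN kept its call at 0.21 (adjusted p = 0.0186).

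In the second chromosome 11 cluster KCNQ1OT1 fell while PHLDA2 and SLC22A18 rose. KCNQ1OT1 held 10.8, 9.08 and 10.1 CPM with DMSO and 7.42, 8.51 and 7.82 CPM with A366 (log2 fold change -0.36, SE 0.122, edgeR adjusted p = 0.0293), without overlap. PHLDA2 held 31.4, 30.3 and 30.9 CPM with DMSO and 41.0, 33.9 and 45.2 CPM with A366 (log2 fold change 0.35, SE 0.0925, edgeR adjusted p = 0.00912). SLC22A18, a transporter gene, held 29.5, 26.7 and 26.9 CPM with DMSO and 39.0, 34.8 and 46.8 CPM with A366 (log2 fold change 0.51, SE 0.110, edgeR adjusted p = 0.00295). CDKN1C had a log2 fold change of 0.03 (95% interval -0.41 to 0.48). The KCNQ1OT1 call was lost in 8 of 19 alternatives. With the offset KCNQ1OT1 turned to 0.21 (not called, adjusted p = 0.168) and PHLDA2 to -0.19 (called in the other direction, adjusted p = 0.0254), so their direction depends on this correction, whereas SLC22A18 stayed higher at 0.22 (adjusted p = 0.0435).

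Among the tissue-dependent genes, GRB10, an adaptor that damps insulin receptor signalling, rose from 45.4, 46.5 and 44.7 CPM to 61.3, 67.3 and 61.9 CPM (log2 fold change 0.45, SE 0.0668, edgeR adjusted p = 0.000569). IGF2R, the receptor that clears IGF2, fell from 277, 275 and 278 CPM to 196, 253 and 175 CPM (log2 fold change -0.44, SE 0.107, edgeR adjusted p = 0.00619), and with the offset it was at -0.12 and not called (adjusted p = 0.0904). BLCAP, a small membrane protein gene around NNAT, rose from 28.3, 28.2 and 29.9 CPM to 39.1, 34.2 and 39.9 CPM (log2 fold change 0.37, SE 0.0738, edgeR adjusted p = 0.00218). GNAS rose from 1034, 1096 and 1074 CPM to 1288, 1204 and 1377 CPM (log2 fold change 0.25, SE 0.0541, edgeR adjusted p = 0.00334), and was at 0.13 with the offset, still called. In each of these genes the libraries of A366 and DMSO did not overlap. TRAPPC9 was the smallest call, at 0.19 (SE 0.0646, edgeR adjusted p = 0.0286), and it was lost in 7 of 19 alternatives, though not with the offset, where it was 0.29.

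IGF2, SLC22A18, SNRPN, PEG10, GNAS, BLCAP, GRB10, ZDBF2 and INPP5F, 9 members in all, kept their call and direction in each of the 19 alternatives that place the libraries by the supplementary dataset or leave the 4 out. The remaining 8 calls were lost or turned in at least 1 of them. SNRPN and SNURF share reads and had nearly the same CPM. That SNRPN kept its call with the offset and SNURF did not rests on their annotation. It gives them 1940 and 796 bases, and a GC content of 49.9% and 53.8%. Over the 23 tested members, libraries of A366 and DMSO did not overlap for 19, beside 58.0% of all genes.

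In the same libraries, change went with transcript length and base composition over the whole transcriptome. Genes that rose with A366 in MP41 had a median longest transcript of 2414 bases and a GC content of 56.2%, and genes that fell had 5425 bases and 42.1%. The members followed the same order, with medians of 2635 bases for the 9 that rose and 7985 bases for the 8 that fell. The median log2 fold change of all genes ran from 0.38 in the shortest of 10 equal length classes to -0.39 in the longest. IGF2, INPP5F and GRB10 were in the same length class, where the median over all genes was -0.16, and had -2.49, -0.58 and 0.45. Their GC contents differed, at 60.4%, 44.0% and 51.2%. With the offset fitted for length and GC content in each library, 13 members were called, 7 higher and 6 lower, beside 34.4% of all genes. The part of length and GC content in any of these changes was not tested further.

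**Figure D4:**
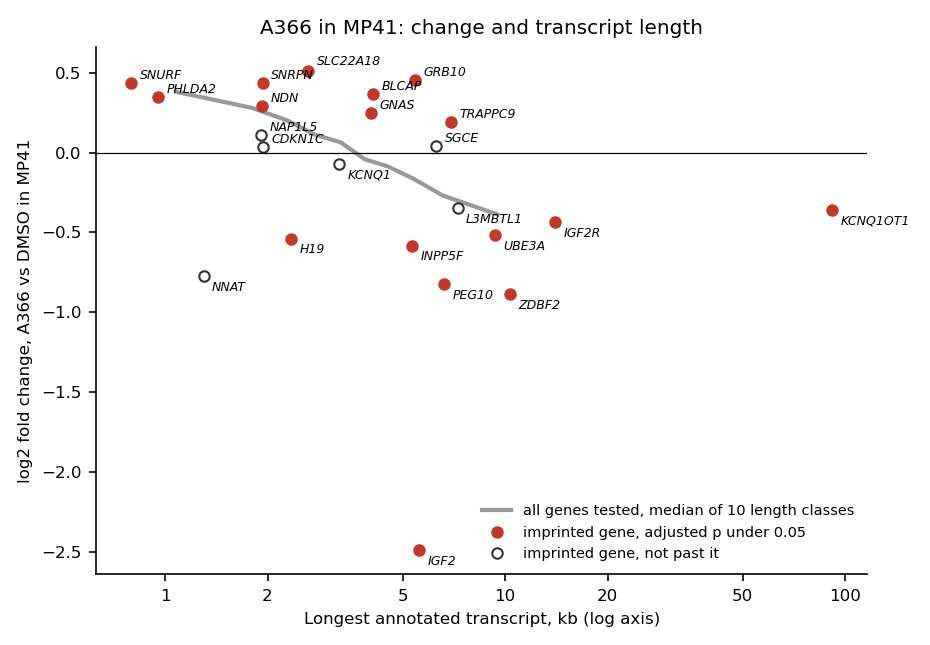
Log2 fold change of the 23 tested imprinted genes with A366 against DMSO in MP41, by the length of the longest annotated transcript in kb on a log axis; filled points passed an edgeR adjusted p of 0.05. The grey line joins the medians of all tested genes in 10 length classes and falls from 0.38 to -0.39, with IGF2 far below it at -2.49 and GRB10 above it at 0.45.

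UNC0642 and A366 were set against each other at the same dose and time, as 1 pair in each line. In Mel92.1, 0 of 23 members differed by edgeR's adjusted p (2 at an unadjusted p under 0.05, PHLDA2 and CDKN1C), beside 0.165% of all genes. For 12 of the 23 members the interval of the difference stayed within 1.5-fold, and libraries did not overlap for 4, beside 14.5% of all genes. In MP41, 17 of 23 members differed (9 higher and 8 lower with A366), beside 43.1% of all genes (21.1% higher and 22.0% lower). IGF2 was lower with A366 by a log2 difference of -2.72 (SE 0.316, edgeR adjusted p = 0.000145), and GRB10 was higher by 0.52 (SE 0.0669, edgeR adjusted p = 0.000250). SGCE, with 25.8 to 26.3 CPM against 21.7 to 23.3 CPM, was called here (log2 difference 0.21), and its call was lost in 7 of 19 alternatives, while with the offset the difference was 0.60. Libraries of the compounds did not overlap for 19 of 23 members in MP41, beside 51.6% of all genes. With the libraries as labelled 10 members were called beside 31.0% of all genes, and without the 4 libraries 15 were called beside 34.4%.

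Whether the lines responded differently was tested as the change in Mel92.1 minus the change in MP41. For UNC0642, 0 of 25 members differed by edgeR's adjusted p, 1 (H19) had an unadjusted p under 0.05, and 0.601% of all genes were called. For A366, 9 of 25 members differed, beside 13.8% of all 15799 genes (5.13% higher and 8.67% lower). The difference was positive for KCNQ1OT1 (0.99, SE 0.286, edgeR adjusted p = 0.0318), PEG10 (0.82, adjusted p = 0.0191), INPP5F (0.70, adjusted p = 0.00699) and UBE3A (0.47, adjusted p = 0.0195). It was negative for PHLDA2 (-0.81, adjusted p = 0.0154), SNRPN and SNURF (both -0.64, adjusted p = 0.0114 and 0.0112), GRB10 (-0.48, adjusted p = 0.0162) and GNAS (-0.27, adjusted p = 0.0436). The A366 libraries of KCNQ1OT1 lay above DMSO in Mel92.1 and below DMSO in MP41, each without overlap, and PHLDA2 had the opposite order. With the length and GC offset both calls were lost, at 0.10 for KCNQ1OT1 (adjusted p = 0.887) and -0.24 for PHLDA2 (adjusted p = 0.287), as were those of SNURF (-0.22), UBE3A (-0.04) and GNAS (-0.11), and 5 members were called beside 6.25% of all genes. Over 27 alternatives the call was lost in 21 for GNAS, 11 for KCNQ1OT1, 10 for UBE3A, 7 each for PHLDA2 and PEG10, 3 for SNURF, and 1 each for SNRPN, GRB10 and INPP5F. Without the 4 libraries 0 of these were called, beside 1.24% of all genes, although the 9 kept their directions. As labelled 18 members were called, beside 49.4% of all genes. Leaving out any 1 of MP41 A366 replicate 1, Mel92.1 A366 replicate 1, MP41 A366 replicate 3, Mel92.1 A366 replicate 2, Mel92.1 DMSO replicate 2 or Mel92.1 DMSO replicate 3 left 5, 5, 4, 4, 4 and 4 members called, beside 5.16%, 5.05%, 3.99%, 4.05%, 4.83% and 3.86% of all genes.

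A further 62 imprinted genes were counted from a list that was also chosen with earlier results of these data known. Of these, 59 were in the table. Filtering left 28 for the test in Mel92.1 and 27 for MP41. With UNC0642 or A366 in Mel92.1, and with UNC0642 in MP41, 0 were called. With A366 in MP41, 8 rose and 8 fell of 27, and between the lines with DMSO 16 were higher and 11 lower in Mel92.1 of 32. These counts have the same backgrounds as those above. Among 18 genes that keep or erase imprints, such as the DNA methyltransferases, TRIM28 and the TET enzymes, 16 were tested. ARID4B, a chromatin protein known to act at the Prader-Willi control region, was the 1 of 16 called with UNC0642 in Mel92.1, beside 0.688% of all genes. It held 21.1, 23.4 and 18.9 CPM with DMSO and 48.5, 35.1 and 36.3 CPM with UNC0642, so all UNC0642 libraries were above all DMSO libraries, with the highest in the shallow replicate 1 (log2 fold change 0.91, SE 0.139, edgeR adjusted p = 0.0157). In MP41 it held 59.1, 59.4 and 62.7 CPM with DMSO and 58.8, 54.0 and 61.5 CPM with UNC0642, and the difference in response between the lines was 0.97 (SE 0.156, edgeR adjusted p = 0.00401). With A366 in Mel92.1 ARID4B held 30.6, 27.1 and 31.0 CPM, above all DMSO libraries of that line, and was not called. It was among the 5 of 16 called in the difference in response to A366, beside 13.8% of all genes. With A366 in MP41, EHMT2 and TRIM28 rose and 9 of the 16 fell, among them DNMT1, UHRF1, CTCF and the 3 TET genes, again beside 46.0% of all genes. EHMT2 itself, the target of both compounds, held 96.0, 97.7 and 102 CPM with DMSO and 116, 117 and 118 CPM with A366 in MP41 (log2 fold change 0.23, SE 0.0605, edgeR adjusted p = 0.00936). Values of these genes with the length and GC offset are not given here. The median change of all genes in this comparison ran from -0.31 in the lowest of 10 GC classes to 0.36 in the highest. The part of length and GC content in the change of EHMT2 and the other list genes was not tested.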

How the data were processed

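RNA sequencing libraries (18) were prepared with oligo-dT selection and a strand-marking kit. The authors deposited expected counts per gene (RSEM), not normalized, for human gene symbols; the submitters' processing notes name Bowtie2 2.1.0, RSEM 1.2.15 and hg38, whereas the published methods give a mouse build, TopHat and FPKM values, which do not describe this table. The members and the further lists were chosen with earlier results of these data known.

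Expected counts were rounded and tested with edgeR 4.0.16 (R 4.3.3; filterByExpr, TMM, glmQLFit, glmQLFTest), Benjamini-Hochberg adjusted over all genes tested at 0.05. The 9 libraries of a line were fitted together for within-line comparisons, and all 18 in 6 groups for differences between lines. CPM values are TMM-scaled over 18 libraries. The script was tested on simulated data. Genes named were members called in an inhibitor comparison or a line difference in response, the 8 largest differences between lines and members below the filter. Called genes of the further lists were named where fewer than 25% of genes were called. The list genes and markers named for A366 in MP41 fall outside this rule. Other members were named after their values were seen. Groups followed the labels except the 4 A366 libraries described above. Alternatives were DESeq2 1.42.0, RLE factors, other filters, 18-library fits, leaving out ribosomal RNA genes, a replicate block, an offset for GC content and length (mgcv 1.9.3; GENCODE 29 on GRCh38, of 26475 symbols 23899 matched by name and 773 by synonym), other placements and leaving out each library. Replicates of a group differed beyond sampling noise. Same-numbered libraries did not deviate together (correlations -0.195 to 0.225). Intervals and floors cover counting error only where they rest on counts. Depth limits precision as given with the totals per library.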

Additional observations from a re-analysis of the deposited data

Results flagged for a closer look

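The change with A366 in Mel92.1 minus that in MP41 passed the threshold for 9 imprinted genes, which is what marked them for a second look. The differences on the log2 scale were 0.99 for KCNQ1OT1, 0.82 for PEG10, 0.70 for INPP5F and 0.47 for UBE3A, and -0.81 for PHLDA2, -0.64 for SNRPN, -0.64 for SNURF, -0.48 for GRB10 and -0.27 for GNAS. The 4 positive genes have a median longest transcript of 7985 bases and the 5 negative ones of 1940 bases, beside 5248 and 2393 bases over all genes called in the same contrast, and the part of length in the differences was not tested beyond the offset. With that offset 5 members were called, beside 6.25% of all genes, and KCNQ1OT1, PHLDA2, SNURF, UBE3A and GNAS were not. KCNQ1OT1 and PHLDA2 are the ones whose A366 libraries left the DMSO range in opposite directions in the lines, which was tested only through this difference.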

How the results depend on the processing

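Under DESeq2, RLE factors, both other filters, 18-library fits and removal of ribosomal RNA genes, every count of called members stayed within 1.5 times its value, and no named direction turned. With the libraries as labelled, 9 members were called for A366 against DMSO in MP41, 10 for A366 against UNC0642 in MP41 and 18 for the difference in response to A366. The turned values there were PHLDA2 -0.42, SLC22A18 -0.14, SNRPN -0.54, SNURF -0.55, NDN -1.23, IGF2R 0.091 and TRAPPC9 -0.77 for A366 against DMSO in MP41. Against UNC0642 they were PHLDA2 -0.28, SLC22A18 -0.16, SNRPN -0.59, SNURF -0.59, NDN -1.30 and IGF2R 0.17, and in the difference of responses PHLDA2 1.10, SNRPN 2.00 and SNURF 2.01. These A366 arms hold both lines by construction. Without the 4 libraries, 0 members were called in the difference of responses to A366, which leaves 1 A366 library per line. With the length and GC offset, 10 members were called for A366 against UNC0642 in MP41 beside 35.1% of all genes and 5 in the difference of responses beside 6.25%, and as many members with the replicate block, beside 32.1% and 4.72%. It turned KCNQ1OT1 (0.21), PHLDA2 (-0.19) and SNURF (-0.0019) for A366 against DMSO in MP41, KCNQ1OT1 (0.16) and NDN (-0.034) for A366 against UNC0642, UBE3A (0.11) between lines and UBE3A (-0.037) in the difference of responses. With the replicate block added, these were 0.21, -0.19, -0.0028, 0.16, -0.033, 0.11 and -0.037, and the cause was not tested. The replicate block alone, where numbers do not pair the libraries, called 0 members for UNC0642 in either line and for A366 in Mel92.1. It also called 0 in the difference in response to UNC0642. Over all genes it moved the calls from 100 to 46 (UNC0642 in Mel92.1), 31 to 10 (A366 in Mel92.1) and 36 to 9 (UNC0642 in MP41). Of the members called without the block, it kept 17 of 17 for A366 against DMSO in MP41 and 16 of 17 against UNC0642. It kept 22 of 22 between lines with DMSO and 8 of 9 in the difference of responses to A366. For these comparisons the share of all genes with the block is not given here, so the counts show kept calls only. Leaving out each library in turn gave 14 to 17 members for A366 against DMSO in MP41 (31.5% to 52.1% of all genes), 13 to 17 against UNC0642 (29.3% to 50.7%), 20 to 23 between lines (63.5% to 74.3%), 4 to 13 in the difference of responses to A366 (3.86% to 24.1%) and 0 to 1 for UNC0642 in Mel92.1 (0.257% to 1.24%). The 11 members below the filter are limited by depth.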
